A study of Mus musculus with 20 samples.

Results

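Described here are 10 liver genes of a group named growth hormone pulse-induced: Socs2, Bcl6, Igf1, Igfals, Hsd3b5, Elovl3, Moxd1, Cyp2d9, Cyp7b1 and Slco1a1. They were taken by symbol from the array's annotation, which gave 22 of the 45037 probe sets in the table, for 10 of 18193 genes with a single symbol. The values came from livers of male CD1 mice, an outbred stock. The first group received phenobarbital sodium (PB), a sedative that activates the receptor CAR in hepatocytes, at 80 mg/kg/day by mouth for 90 days, and was set against mice given the methylcellulose vehicle (CMC, 0 mg/kg/day of drug) for 90 days. A second PB group, dosed at 80 mg/kg/day for 28 days, was set against a CMC group of 28 days. Each group held 5 mice with 1 array each, made from the left lateral lobe, which was removed 1 day after dosing ended. The age of the mice was not given in the sources used here, and dosing time and age cannot be told apart between the durations.

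In male mice the pituitary releases growth hormone in pulses. Each pulse activates the receptor Ghr and its kinase Jak2 in hepatocytes, which switch on the transcription factor STAT5b, and STAT5b raises male-type liver genes and the genes of the insulin-like growth factor axis. Female mice secrete the hormone more continuously, and their livers hold less of the male-type transcripts and more of a female-type set. Growth hormone itself was not measured here, so the name of the group rests on this background. Whether each gene answers to the pulses was not tested. The question asked of the groups is whether phenobarbital moved the mean of these genes or their spread between animals.

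STAT5 binds the letters TTCNNNGAA, which read the same on both strands. RefSeq windows on GRCm38.p6, each 300 bases long with 250 bases before the gene start and 50 after it, were found for 7 of the 10 genes, and Elovl3, Cyp7b1 and Socs2 were not matched. The motif stood in 5 of the 10 windows of these genes, against 2726 of 32851 windows in the whole table (8.3%). The windows with the motif belonged to 3 of the 7 genes, Bcl6, Igfals and Moxd1, and those of Hsd3b5, Cyp2d9, Slco1a1 and Igf1 held no match. Bcl6 and Igfals had more than 1 window, and the share per gene over the whole table was not counted, so the 2 shares of windows are no measure of enrichment. A match is a description of the letters and not a bound site. The windows of Bcl6 and Moxd1 are printed because these genes had the widest spread between mice, and 1 of the 2 Igfals windows with a match because its transcript followed the main axis of variation between the arrays, described next. All are given 5′ to 3′ in the direction of the gene, with the motif in capitals.
Bcl6, chr16:23981234-23981533, minus strand, motif starting at -168, -122 and -88 from the gene start: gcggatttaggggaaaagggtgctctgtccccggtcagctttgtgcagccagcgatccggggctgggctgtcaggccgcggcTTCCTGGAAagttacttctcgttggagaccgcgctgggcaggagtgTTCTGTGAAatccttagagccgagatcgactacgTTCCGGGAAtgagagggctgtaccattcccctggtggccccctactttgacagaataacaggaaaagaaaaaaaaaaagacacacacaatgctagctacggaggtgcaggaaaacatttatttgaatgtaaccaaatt
Bcl6, chr16:23988803-23989102, minus strand, motif starting at -118: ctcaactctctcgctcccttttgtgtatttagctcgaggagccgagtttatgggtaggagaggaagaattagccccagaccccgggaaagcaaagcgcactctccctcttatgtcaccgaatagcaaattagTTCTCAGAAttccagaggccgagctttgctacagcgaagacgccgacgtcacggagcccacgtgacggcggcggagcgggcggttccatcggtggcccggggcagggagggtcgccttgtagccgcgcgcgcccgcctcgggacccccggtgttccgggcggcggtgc
Moxd1, chr10:24223267-24223566, plus strand, motif starting at -150: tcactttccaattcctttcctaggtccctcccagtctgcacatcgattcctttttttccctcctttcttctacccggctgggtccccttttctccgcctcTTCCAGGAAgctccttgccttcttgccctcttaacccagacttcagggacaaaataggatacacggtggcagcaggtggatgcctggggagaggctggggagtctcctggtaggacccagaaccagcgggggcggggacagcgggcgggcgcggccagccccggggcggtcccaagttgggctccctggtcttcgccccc
Igfals, chr17:24877981-24878280, plus strand, motif starting at -58: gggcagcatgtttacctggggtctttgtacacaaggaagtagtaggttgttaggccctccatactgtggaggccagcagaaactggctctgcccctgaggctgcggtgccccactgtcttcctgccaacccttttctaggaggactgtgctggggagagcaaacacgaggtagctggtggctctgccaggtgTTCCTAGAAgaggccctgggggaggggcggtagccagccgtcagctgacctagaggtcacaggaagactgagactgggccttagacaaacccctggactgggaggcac

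All values are log2 intensities after RMA, so 1 unit is a doubling, and n = 5 mice per group. After a difference, ± gives the standard error from limma, and after a group mean it gives the SD between mice. The mice were separate animals, so p-values rest on differences between animals. Cyp2b10, the standard target of phenobarbital, was higher in PB livers by 5.88 ± 0.62 log2 units at 90 days (limma, adjusted p = 2.79e-05) and by 4.90 ± 0.62 at 28 days (adjusted p = 0.000572). The 5 hepatocyte markers averaged between 13.17 and 14.29 on the 20 arrays. The first principal component of all genes held 55.6% of the variance, and 2 PB arrays lay apart at its low end, with scores of -65.2 for replicate 3 at 90 days and -107.9 for replicate 5 at 28 days, against -39.8 for the next array. The hepatocyte mean was also low there, at 13.40 and 13.17, and the mean of 5 Kupffer cell markers was 8.58 and 9.09, where all 20 arrays ranged from 7.31 to 9.09. Most of the low hepatocyte mean came from the marker Apob, with an SD in PB livers of 1.56 at 90 days and 1.49 at 28 days. Alb, Ttr, Apoa1 and Ahsg had SDs of 0.03 to 0.28 in the same groups. Without the 2 arrays the Apob difference shrank from -0.94 to -0.38 at 90 days and from -0.86 to -0.22 at 28 days. Neutrophil markers averaged 5.13 to 6.86 in PB and 4.73 to 5.25 in CMC livers at 90 days, and 6.14 to 6.96 in PB and 5.30 to 5.79 in CMC livers at 28 days. S100a8 carried this difference (6.28 ± 1.13 log2 units at 90 days, adjusted p = 0.0163 in limma, and 5.06 ± 1.13 at 28 days, adjusted p = 0.248, or 0.0261 without the 2 arrays apart), while S100a9, Ngp, Camp and Ltf differed by -0.15 to 0.22. The part of these markers in the results below was not tested. In whole tissue, fewer cells of a type and less RNA per cell cannot be told apart.

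Phenobarbital changed none of the 10 transcripts past the test. Across the 16054 genes tested in limma, 23 were called at 90 days at an adjusted p under 0.05 (0.143%), 8 at 28 days (0.0498%) and 34 for the effect averaged over both durations (0.212%), and 0 of the 10 genes were among them. The effect at 90 days minus the effect at 28 days gave 0 calls over all genes (0%), as did CMC at 90 days against CMC at 28 days (0%). At an unadjusted p under 0.05, the share of all genes was 4.53% at 90 days, 2.86% at 28 days, 1.38% for the difference between durations and 5.69% between the vehicle groups, and 0 of the 10 genes passed in these 4 comparisons. For the averaged effect the share was 6.6%, and 1 of the 10, Igf1, passed. The median change of the 10 genes was -0.10 at 90 days, against 0.03 for all genes, and -0.02 at 28 days, against 0 for all genes. Without the 2 arrays apart these medians were -0.09 against 0.01, and 0.05 against 0.02.

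**Figure D1:**
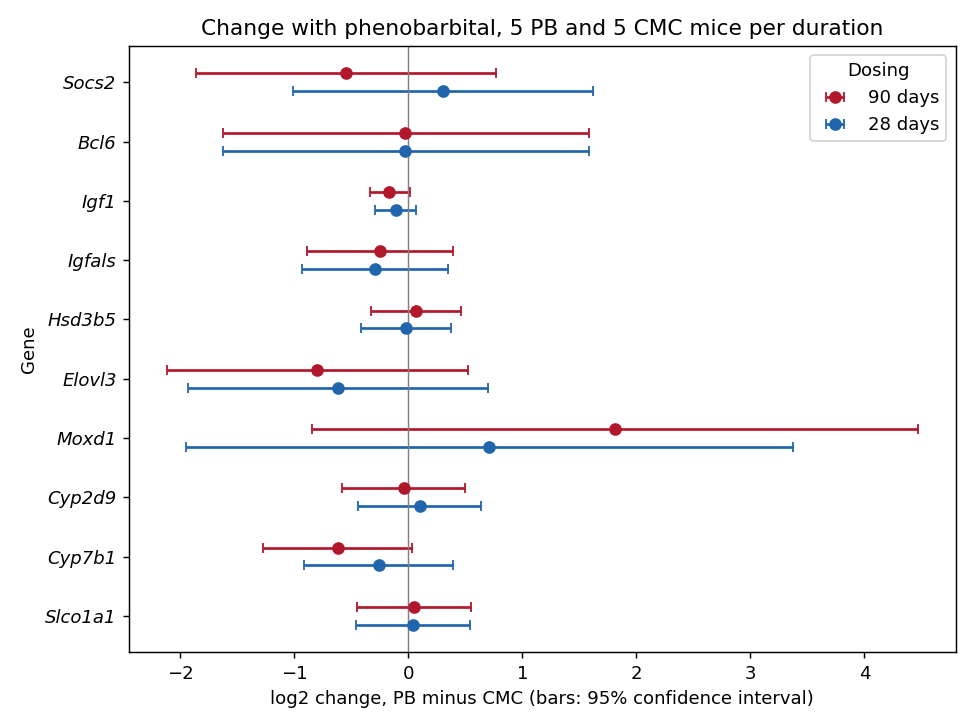
Change of each gene with phenobarbital (log2 units, PB minus CMC; points are estimates and bars 95% confidence intervals from limma) at 90 and 28 days, with 5 PB and 5 CMC mice per duration. The 20 intervals all include 0, and they are widest for Moxd1 (-0.85 to 4.47 at 90 days) and narrowest for Igf1 (-0.34 to 0.01 at 90 days). Each gene is shown on its brightest probe set, and other Igf1 probe sets had larger standard errors.

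Single mice differed widely in several of these genes, as the plot of single livers shows. The pooled SD within groups was 2.26 log2 units for Moxd1, the highest of all 16054 genes, 1.35 for Bcl6 (rank 31 from the top), 1.11 for Elovl3 (rank 92) and 1.10 for Socs2 (rank 98). The median over all genes was 0.27. Cyp7b1 (0.55), Igfals (0.51), Cyp2d9 (0.45), Slco1a1 (0.40) and Hsd3b5 (0.31) also lay above this median, whereas the probe set used for Igf1 had an SD of 0.10 (rank 15975), unlike 2 other Igf1 probe sets described below. These ranks describe 1 probe set per gene.

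**Figure D2:**
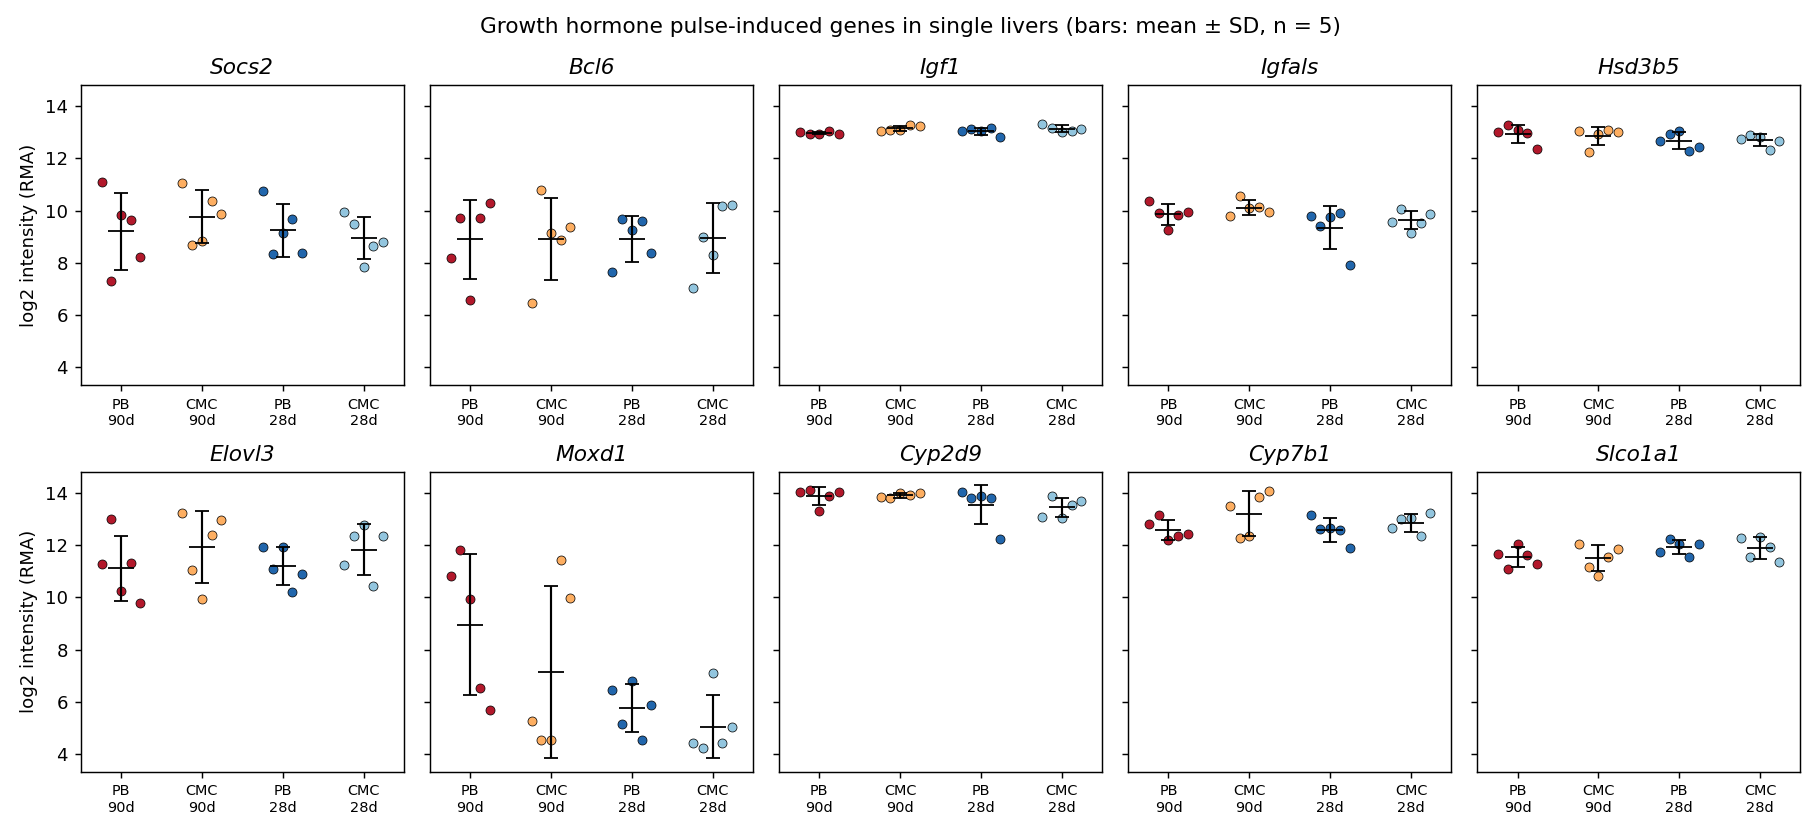
Log2 RMA intensity of the 10 genes in single livers, by group (PB 90 days, CMC 90 days, PB 28 days, CMC 28 days); points are mice, and bars the mean ± SD with n = 5. PB and CMC mice overlap in every panel except Igf1 at 90 days, and Moxd1 spans 4.24 to 11.81 over the 20 livers.

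Socs2 (chr10:95383903-95417321) encodes a suppressor of cytokine signalling that STAT5 induces and that in turn damps the growth hormone receptor. At 90 days its levels were 11.08, 7.30, 9.83, 9.64 and 8.22 in PB mice 1 to 5, against 11.05, 8.68, 8.84, 10.37 and 9.87 in CMC mice 1 to 5. At 28 days they were 10.76, 8.33, 9.13, 9.67 and 8.37 in PB mice, against 9.94, 9.50, 7.85, 8.65 and 8.79 in CMC mice. The groups overlapped at both durations, and the mouse numbered 1 was the highest in each of the 4 groups. The difference was -0.55 ± 0.63 log2 units at 90 days (limma, adjusted p = 0.827; 95% confidence interval -1.86 to 0.77) and 0.30 ± 0.63 at 28 days (adjusted p = 1; interval -1.01 to 1.62). A second bright probe set gave -0.73 and 0.60. Of the other 4, the means over all mice were 3.83 to 5.31, and 1 exceeded the array's 25th percentile on only 1 array and another on 5.

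Bcl6 (chr16:23965050-23988866) encodes a transcriptional repressor that is more abundant in male than in female mouse liver and whose DNA sites overlap those of STAT5. At 90 days its levels were 8.18, 9.73, 6.57, 9.72 and 10.30 in PB mice 1 to 5, against 6.45, 10.79, 9.15, 8.88 and 9.36 in CMC mice 1 to 5. At 28 days they were 7.66, 9.67, 9.27, 9.59 and 8.36 in PB mice, against 7.04, 9.0, 8.28, 10.17 and 10.20 in CMC mice. The 4 means lay between 8.90 and 8.94, while single mice ranged from 6.45 to 10.79. Mouse 1 was the lowest in 3 of the 4 groups, and in PB livers at 90 days replicate 3, 1 of the 2 arrays apart, was lower still. The difference was -0.03 ± 0.77 at 90 days (limma, adjusted p = 0.993) and -0.03 ± 0.77 at 28 days (adjusted p = 1), and without the 2 arrays apart it was 0.56 and 0.11. The second probe set of Bcl6 was dim, with a mean of 5.05, and its groups differed by -0.10 and 0.02.

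Igf1 (chr10:87858265-87937047) encodes insulin-like growth factor 1, the main circulating mediator of growth hormone, which the liver secretes. On its brightest probe set the levels at 90 days were 13.02, 12.95, 12.95, 13.03 and 12.95 in PB mice, against 13.05, 13.10, 13.08, 13.28 and 13.22 in CMC mice. The 2 groups did not overlap, which 1.07% of all genes shared at 90 days, but their nearest mice were 13.03 in PB and 13.05 in CMC. At 28 days the levels were 13.03, 13.11, 13.04, 13.16 and 12.82 in PB mice, against 13.32, 13.18, 13.02, 13.05 and 13.13 in CMC mice, and the groups overlapped. At that duration 0.542% of all genes and 0 of the 10 had groups that did not overlap. The difference was -0.17 ± 0.09 at 90 days (limma, adjusted p = 0.816), -0.11 ± 0.09 at 28 days (adjusted p = 1) and -0.14 ± 0.06 for the averaged effect (unadjusted p = 0.035, adjusted p = 0.72; interval -0.26 to -0.01). This corresponded to 0.909 times the vehicle level and did not pass the test.

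The 4 probe sets of Igf1 disagreed in spread. The second in brightness gave 12.12 ± 0.78 in PB livers and 12.75 ± 0.11 in CMC livers at 90 days, and 11.88 ± 1.30 in PB livers and 12.38 ± 0.50 in CMC livers at 28 days (SD, n = 5 each). The third gave 11.98 ± 0.79 and 12.64 ± 0.10 in PB and CMC livers at 90 days, and 11.78 ± 1.18 and 12.25 ± 0.45 at 28 days. On both, the lowest values belonged to the 2 arrays that stood apart: 10.85 and 10.68 for PB replicate 3 at 90 days, and 9.57 and 9.69 for PB replicate 5 at 28 days. The dimmest, with a mean of 11.15, gave differences of -0.18 and -0.20. The means of all 4 were lower in PB livers at both durations, and 0 of these differences passed the test. At 28 days the lower PB means of the middle 2 in brightness rested on PB replicate 5. The other PB mice lay at 12.30 to 12.71 and 12.19 to 12.58, inside the CMC ranges of 11.76 to 12.96 and 11.64 to 12.73. Without replicate 5 the PB means of these 2 probe sets were slightly above the CMC means. The cause of the disagreement in spread was not tested.

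**Figure D3:**
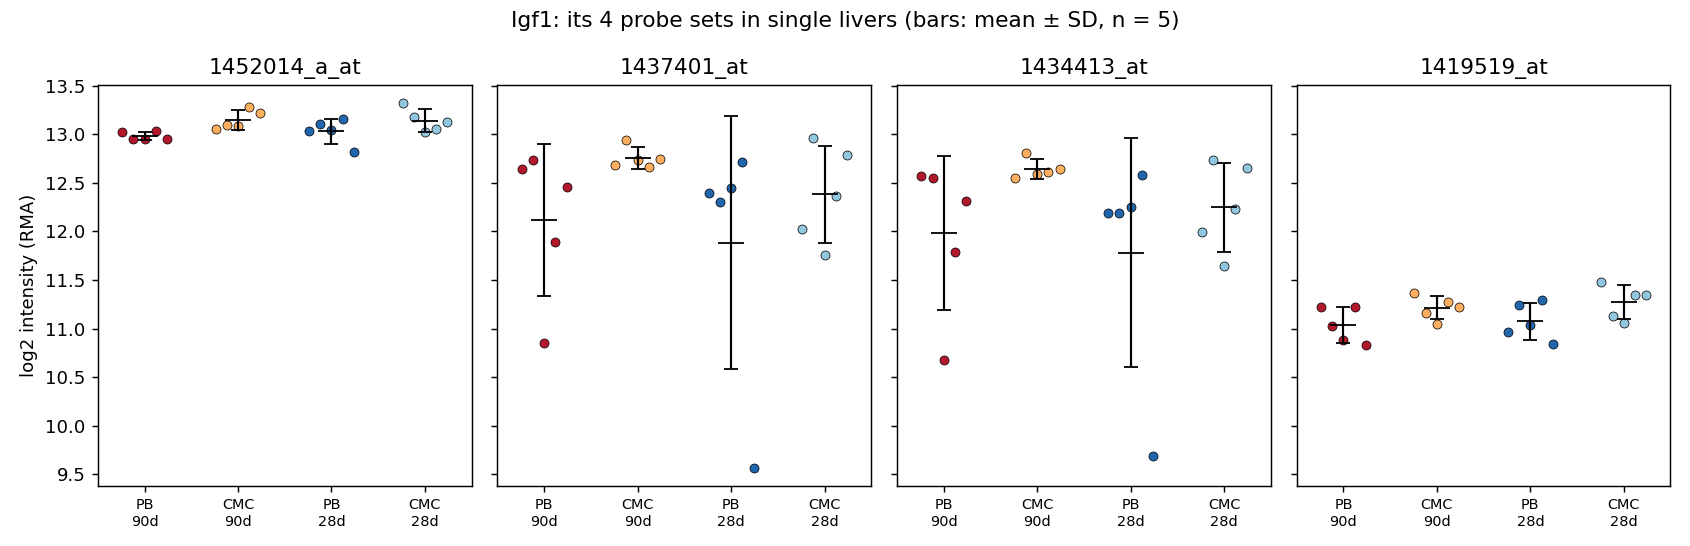
Log2 RMA intensity of the 4 Igf1 probe sets in single livers, by group; points are mice, and bars the mean ± SD with n = 5. On the middle 2 panels 1 PB mouse at 90 days (10.85 and 10.68) and 1 PB mouse at 28 days (9.57 and 9.69) lie below the rest, while on the first panel all mice lie between 12.82 and 13.32.

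Igfals (chr17:24877844-24882011) encodes the acid-labile subunit, which holds circulating Igf1 in a stable complex. At 90 days its levels were 10.37, 9.91, 9.24, 9.84 and 9.93 in PB mice, against 9.81, 10.55, 10.11, 10.13 and 9.95 in CMC mice. At 28 days they were 9.78, 9.41, 9.75, 9.90 and 7.91 in PB mice, against 9.57, 10.07, 9.13, 9.54 and 9.87 in CMC mice. Again the lowest PB mice were those of the 2 arrays apart. The difference was -0.25 ± 0.31 at 90 days (limma, adjusted p = 0.831) and -0.29 ± 0.31 at 28 days (adjusted p = 1), and without those arrays -0.10 and 0.07.

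Among the male-type genes, Moxd1 (chr10:24223517-24302783), a relative of the copper enzyme dopamine beta-hydroxylase, varied most. At 90 days its levels were 10.80, 11.81, 9.95, 6.54 and 5.67 in PB mice, against 5.25, 4.54, 4.53, 11.44 and 9.96 in CMC mice. Thus 3 PB and 2 CMC livers lay at 9.95 or above, and the other 5 at 6.54 or below, with none between. At 28 days the levels were 6.44, 5.15, 6.78, 4.52 and 5.88 in PB mice, against 4.41, 4.24, 7.12, 4.44 and 5.02 in CMC mice, and none of the 10 reached the high range. The difference was 1.81 ± 1.28 at 90 days (limma, adjusted p = 0.816; interval -0.85 to 4.47) and 0.71 ± 1.28 at 28 days (adjusted p = 1). CMC livers at 90 days exceeded CMC livers at 28 days by 2.10 ± 1.28 (adjusted p = 0.636), which did not pass the test either. As Moxd1 has 1 probe set on the array, no second measurement was at hand.

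Cyp7b1 (chr3:18071944-18243890) encodes the oxysterol 7-alpha-hydroxylase of the acidic pathway of bile acid synthesis, which also acts on androgen precursors. At 90 days its levels were 12.80, 13.16, 12.19, 12.36 and 12.41 in PB mice, against 13.50, 12.27, 12.34, 13.86 and 14.06 in CMC mice. Of the CMC mice, 3 lay above every PB mouse, and the other 2 lay inside the PB range. At 28 days the levels were 13.15, 12.60, 12.67, 12.59 and 11.89 in PB mice, against 12.65, 12.98, 13.02, 12.36 and 13.22 in CMC mice. The difference was -0.62 ± 0.31 at 90 days (limma, unadjusted p = 0.0621, adjusted p = 0.816; interval -1.28 to 0.03) and -0.26 ± 0.31 at 28 days (adjusted p = 1). A second probe set gave -0.73 and -0.33, with an adjusted p of 0.833 at 90 days in limma over all probe sets, and the third lay below the array's 25th percentile on all arrays.

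Elovl3 (chr19:46131897-46135694) encodes an elongase of very long chain fatty acids. At 90 days its levels were 11.26, 13.01, 10.23, 11.30 and 9.77 in PB mice, against 13.23, 11.06, 9.95, 12.37 and 12.95 in CMC mice. At 28 days they were 11.93, 11.07, 11.93, 10.20 and 10.90 in PB mice, against 11.23, 12.35, 12.78, 10.43 and 12.33 in CMC mice. The groups overlapped widely. The difference was -0.80 ± 0.63 at 90 days (limma, adjusted p = 0.816) and -0.62 ± 0.63 at 28 days (adjusted p = 1), so that the interval at 90 days ran from -2.12 to 0.52.

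Hsd3b5 (chr3:98618636-98645534), a male-type steroid dehydrogenase family member that acts as a ketosteroid reductase, stayed bright in every mouse, between 12.26 and 13.26. Its difference was 0.07 ± 0.19 at 90 days (limma, adjusted p = 0.916) and -0.02 ± 0.19 at 28 days (adjusted p = 1). The 95% intervals were -0.33 to 0.46 and -0.42 to 0.37. They bound the change in intensity, and how far so bright a probe set is compressed was not measured. Group means were 12.93 ± 0.35 in PB and 12.86 ± 0.34 in CMC livers at 90 days, and 12.67 ± 0.32 in PB and 12.69 ± 0.22 in CMC livers at 28 days (SD, n = 5 each).

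Cyp2d9 (chr15:82452377-82456827), a male-type cytochrome P450 that hydroxylates testosterone, was at 13.87 ± 0.34 in PB and 13.91 ± 0.09 in CMC livers at 90 days, and at 13.54 ± 0.74 in PB and 13.45 ± 0.36 in CMC livers at 28 days (SD, n = 5 each). The lowest PB mice were again those of the 2 arrays apart, at 13.29 and 12.22. Its differences were -0.04 ± 0.26 and 0.10 ± 0.26 (limma, adjusted p = 0.963 and 1), and without those arrays 0.10 and 0.43. Cyp2d9 belongs to a family of near-identical genes, and its probe set may read others of them.

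Slco1a1 (chr6:141907281-141946962), the transporter that takes up bile salts, steroid conjugates and drugs, was at 11.54 ± 0.37 in PB and 11.49 ± 0.49 in CMC livers at 90 days, and at 11.93 ± 0.27 in PB and 11.89 ± 0.43 in CMC livers at 28 days (SD, n = 5 each). Its differences were 0.05 ± 0.24 and 0.04 ± 0.24 (limma, adjusted p = 0.952 and 1), and its second probe set gave 0.07 and 0.21. At 90 days the sign turned without the 2 arrays apart (-0.08).

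The spread between mice was compared with limma on the distances of the mice from their group mean. It gave 0 calls over all genes at 90 days (0%), 0 at 28 days (0%) and 2 for both durations averaged (0.0125%), and none of the 10 genes was called. At an unadjusted p under 0.05, the test took 14.1% of all genes at 90 days, 8.1% at 28 days and 14.4% averaged. With 1 probe set per gene, it took 1 of the 10 at 90 days, Cyp7b1, with 0 at 28 days and 0 averaged. These shares are above those of the test of means at the same threshold. The SD of Cyp7b1 was 0.39 in PB and 0.85 in CMC livers at 90 days, and its mean distance was lower in PB by 0.45 ± 0.16 log2 units (limma, adjusted p = 0.273). It was 0.45 in PB and 0.34 in CMC livers at 28 days. Moxd1 had an SD of 2.70 in PB and 3.30 in CMC livers at 90 days, and 0.93 in PB and 1.19 in CMC livers at 28 days (adjusted p = 0.546 and 0.961 in limma). For Socs2 the SD was 1.48 in PB and 1.01 in CMC livers at 90 days, and 1.01 in PB and 0.81 in CMC livers at 28 days (adjusted p = 0.589 and 0.898 in limma).

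Whether the same mice were high for several of the genes was asked with the deviations of the 20 mice from their group means, for 45 pairs of genes. By permutation within groups and adjustment over the 45 pairs, 2 pairs passed by Pearson's r and 1 by Spearman's rho, and 14 had an unadjusted p under 0.05 by r. Elovl3 and Cyp7b1 varied together across mice (r = 0.79, permutation p = 0.00051, adjusted p = 0.0229; rho = 0.79, permutation p = 0.00053, adjusted p = 0.0238). Without the 2 mice farthest from the median of Elovl3 r was 0.72, and it was positive in each of the 4 groups. Hsd3b5 and Moxd1 lay in the same block without passing, with r = 0.64 for Hsd3b5 and Elovl3 and r = 0.67 for Moxd1 and Cyp7b1 (permutation, adjusted p = 0.0808 and 0.0972). For Hsd3b5 and Moxd1 r was 0.56, and 0.36 without the 2 mice farthest from the median of Hsd3b5. Without the 4 mice numbered 1 the Elovl3 and Cyp7b1 correlation was 0.78 with an adjusted permutation p of 0.0702, and 0 pairs passed. These mice were chosen after the data were seen.

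**Figure D4:**
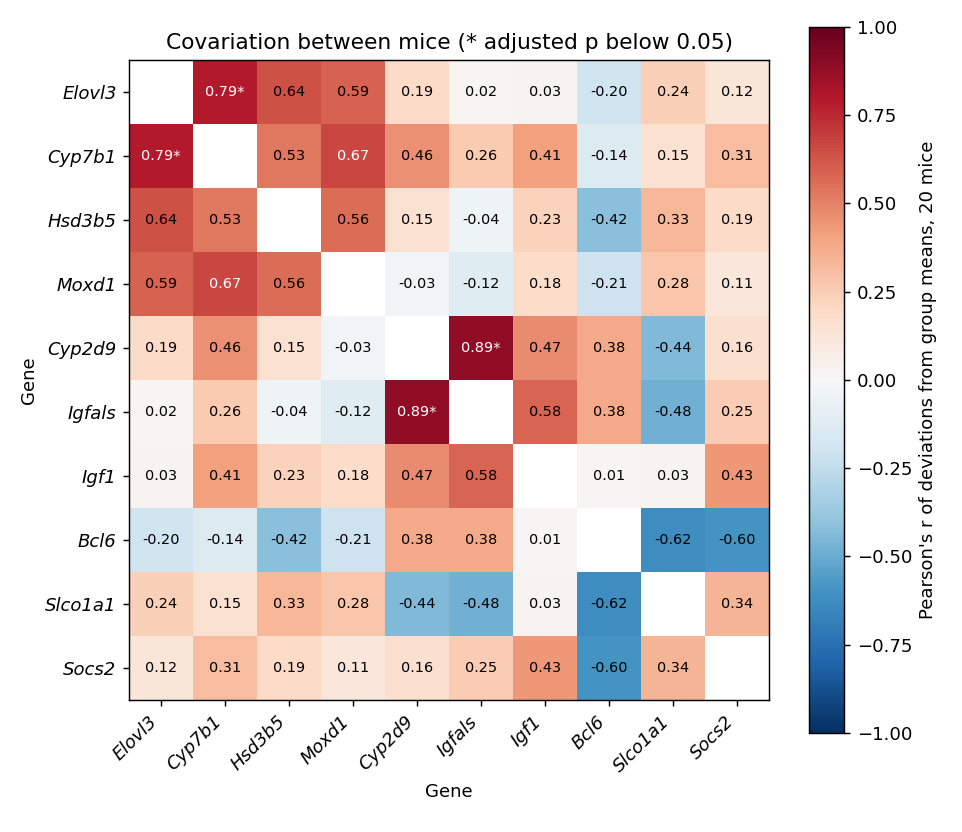
Pearson's r between the genes, from deviations of 20 mice from their group means; rows and columns are genes, colour and digits give r, and an asterisk marks an adjusted permutation p under 0.05. Elovl3, Cyp7b1, Hsd3b5 and Moxd1 correlate with each other at 0.53 to 0.79, and Bcl6 is negative against Slco1a1 (-0.62) and Socs2 (-0.60).

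Cyp2d9 and Igfals were the other pair that passed by r (r = 0.89, permutation p = 0.00207, adjusted p = 0.0466), but not by rho (0.72, adjusted permutation p = 0.0792). This relation rested largely on the 2 arrays that stood apart, since r was 0.53 without them (adjusted permutation p = 0.324). It was positive in 3 of the 4 groups, 1 of which, CMC at 28 days, holds neither array, and negative in CMC livers at 90 days. Both genes followed the first principal component, Cyp2d9 with r = 0.93 and rho = 0.83 (permutation, adjusted p = 0.0008 and 0.00123 over 10 genes) and Igfals with r = 0.88 and rho = 0.82 (adjusted p = 0.0008 and 0.0007). Without the 2 mice farthest from the median of the component, r was 0.83 for Cyp2d9 and 0.72 for Igfals. Slco1a1 ran against it (r = -0.62, rho = -0.72; permutation, adjusted p = 0.0029 and 0.00123; r = -0.71 without those mice). Bcl6 passed by r and not by rho (r = 0.51, rho = 0.45; permutation, adjusted p = 0.0391 and 0.132; r = 0.42 without those mice), and Cyp7b1 by neither (r = 0.40, rho = 0.35; adjusted p = 0.0741 and 0.176). For Moxd1, Hsd3b5 and Socs2 r with the component lay between -0.01 and 0.00. The component held 55.6% of the variance of all genes. The share of all genes that follow it as closely was not counted, so following it cannot be taken as particular to these genes.

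Bcl6 and Socs2 ran opposite to each other (r = -0.60, permutation p = 0.0124, adjusted p = 0.0808; rho = -0.67, permutation p = 0.00528, adjusted p = 0.0792), which did not pass over the 45 pairs. The correlation was negative in each of the 4 groups. Bcl6 thus varied against a gene that STAT5 induces, without passing. It also ran against Cish, another gene that STAT5 induces, without passing (r = -0.49, rho = -0.56; permutation, adjusted p = 0.236 and 0.132 over 50 pairs). With the transcript of Stat5b it varied in the same direction (r = 0.58). The name pulse-induced is not shown for Bcl6 by these values, and whether it holds was not tested. The correlation of Bcl6 and Socs2 was -0.66 without the 2 arrays apart (adjusted permutation p = 0.0616). It was -0.35 without the 4 mice numbered 1 (adjusted permutation p = 0.672). Those 4 mice were chosen after the data were seen, and each had the highest Socs2 of its group. Leaving out such extreme mice tends to weaken r, so the -0.35 cannot say how firm the relation is. The labels do not say that a number ties mice of different groups together. Mouse 1 was the highest of all 4 groups for 7 of 16054 genes (0.0436%), Socs2 among them.

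**Figure D5:**
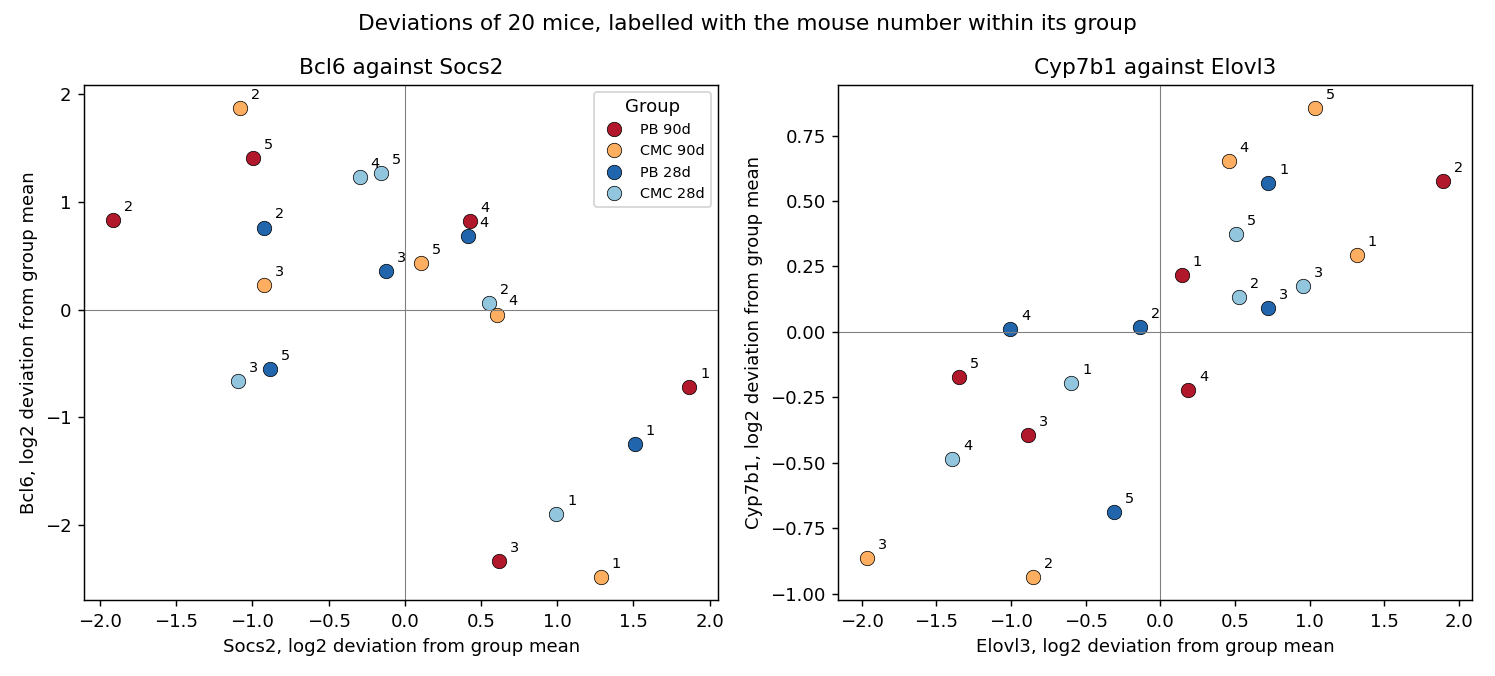
Deviations of 20 mice from their group means (log2 units), Bcl6 against Socs2 on the left and Cyp7b1 against Elovl3 on the right, coloured by group and labelled with the mouse number. On the left 4 mice numbered 1 lie at high Socs2 and low Bcl6 (r = -0.60 with them and -0.35 without). They were picked from these same values, so the weaker r is no test of the relation. On the right the points run upward (r = 0.79).

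The genes nearest to Moxd1 across the 20 mice, among all genes tested, were Elp6 (r = 0.89, rho = 0.88), Hspb1 (r = 0.87), P4ha1 (r = 0.86), Kcnk1 (r = 0.81) and Hspa4l (r = 0.81), and the most opposed was Dbh (r = -0.84). Hspb1 is a small heat shock protein, P4ha1 a subunit of collagen prolyl hydroxylase, and Dbh is dopamine beta-hydroxylase itself. For Igf1 the nearest were Ccdc124 (r = 0.84), Sgsm1 (r = 0.81), Fgf16 (r = 0.80), Pigg (r = 0.79) and Tpgs2 (r = 0.77). Cux2, a female-specific repressor of male-type liver genes, was among the most opposed to Igf1 (r = -0.76). These Igf1 values rest on its brightest probe set, with an SD within groups of only 0.10. The neighbours of its more variable probe sets were not looked up. For Socs2, looked up after its values were seen, the nearest was Onecut1 (r = 0.87), a liver transcription factor, and for Bcl6 it was Bcor (r = 0.80), whose product is a corepressor of Bcl6. These are the extremes of 16054 correlations over 20 mice and are given without a test.

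Upstream of these genes, transcripts of the hormone's receptor and its pathway did not differ past the test. Ghr differed by -0.18 ± 0.14 log2 units at 90 days and -0.08 ± 0.14 at 28 days, Jak2 by -0.01 ± 0.15 and -0.06 ± 0.15, Stat5a by 0.04 ± 0.24 and 0.09 ± 0.24, and Stat5b by 0.03 ± 0.41 and 0.01 ± 0.41, with adjusted p from 0.816 to 1 in limma. Cish, another suppressor of cytokine signalling induced by STAT5, differed by -0.64 ± 0.62 and -0.63 ± 0.62 (limma, adjusted p = 0.816 and 1). Cish and Socs2 varied together across mice (r = 0.76, rho = 0.78; permutation, adjusted p = 0.00833 and 0.0085 over 50 pairs of 5 pathway genes with the 10 genes), and r was 0.72 without the 2 mice farthest from the median of Cish. Ghr did so with Cyp2d9 (r = 0.94, rho = 0.88; permutation, adjusted p = 0.00275 and 0.0085; r = 0.83 without 2 mice) and with Igfals (r = 0.93, rho = 0.80; adjusted p = 0.0015 and 0.0105; r = 0.80 without 2 mice), 2 of the genes that followed the first principal component. In all, 8 of the 50 pairs passed by both measures and 1 more, Cish with Igf1, by rho alone (r = 0.55, rho = 0.62; permutation, adjusted p = 0.0611 and 0.0454). The other 5 that passed by both were Stat5b with Igfals (r = 0.81), Cyp2d9 (r = 0.78) and Bcl6 (r = 0.58), and Stat5a with Igfals (r = 0.66) and Cyp2d9 (r = 0.65), with adjusted permutation p from 0.0174 to 0.0407 by r and 0.0265 to 0.0321 by rho. Without the 2 mice farthest on the pathway gene, r of these 5 lay between 0.42 and 0.57. Their partners Igfals and Cyp2d9 followed the first principal component, and Bcl6 did so by r alone. Stat5b was lowest on the 2 arrays apart, at 7.06 for PB replicate 3 at 90 days and 6.52 for PB replicate 5 at 28 days. Whether these 5 pairs and those of Ghr vary together apart from the component was not tested.

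Of 28 genes of growth hormone and insulin-like growth factor signalling, those just named included, 25 were tested, and 0 of these rose and 0 fell past the test at either duration, with a median change of -0.24 at 90 days and -0.06 at 28 days, against 0.03 and 0 for all genes. The largest differences were those of Socs3, an inhibitor of cytokine receptors (-1.47 ± 0.74 at 90 days and -1.55 ± 0.74 at 28 days), of the binding protein gene Igfbp1 (0.97 ± 0.63 at 90 days) and of Igfbp2 (0.72 ± 0.26 at 28 days). Without the 2 arrays apart the medians were -0.03 and 0.21, and 0 genes of the list passed. Of 17 transcription factors (19 listed) that act with STAT5b or on sex-biased liver genes, 0 passed at either duration, with medians of -0.46 and -0.05. Onecut1 differed by -0.99 ± 0.75 and Rxra by -0.82 ± 0.55 at 90 days, and Esr1 by -0.84 ± 0.33 and Cebpb by -0.58 ± 0.44 at 28 days. Without the 2 arrays apart the medians were -0.26 and 0.09 with 0 genes passing, and the differences were -1.13 for Onecut1 and -0.33 for Rxra at 90 days, and -0.55 for Esr1 and -0.13 for Cebpb at 28 days.

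Of 23 other male-biased liver genes (30 listed), 0 passed at either duration, with medians of -0.10 and -0.15. The odorant-binding protein gene Obp2a differed most, by -2.68 ± 0.79 at 90 days (limma, adjusted p = 0.642) and -1.34 ± 0.79 at 28 days (adjusted p = 1), followed by Egfr at 90 days (-1.14 ± 0.69) and Scara5 at 28 days (-1.03 ± 0.68). Without the 2 arrays apart the medians were -0.11 and 0.02 with 0 genes passing, Obp2a differed by -2.86 and -1.27, Egfr by -0.63 at 90 days and Scara5 by -0.55 at 28 days. Of 18 female-biased genes tested among 26 listed, 2 rose and 0 fell at 90 days: the oestrogen sulfotransferase Sult1e1 (4.71 ± 0.36, adjusted p = 1.44e-07 in limma) and the cytochrome P450 Cyp2b13 (3.82 ± 0.57, adjusted p = 0.00211). Their median was 0.45 at 90 days, with 16 of 18 positive, and 0.50 at 28 days, with 16 of 18 positive and 0 called, where Cyp2b9 (2.75 ± 0.85) and Cyp2b13 (2.54 ± 0.57) differed most. For the averaged effect Gstt3 (1.46 ± 0.28, adjusted p = 0.026 in limma) and Cyp2b9 (2.88 ± 0.60, adjusted p = 0.0499) passed as well. Without the 2 arrays apart the medians were 0.36 and 0.33, and 3 genes passed at 90 days, Sult1e1, Cyp2b13 and Prom1 (1.53 ± 0.29, adjusted p = 0.0278 in limma), and 1, Cyp2b13 (3.03 ± 0.39, adjusted p = 0.000656 in limma), at 28 days. Several of these, the Cyp2b genes among them, are known targets of phenobarbital apart from growth hormone. Whether the probe sets of Cyp2b9 and Cyp2b13 also read Cyp2b10 was not tested. Over all genes the median change was 0.03 at 90 days and 0 at 28 days, and the share of positive changes was not counted.

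The time of day at which the livers were taken was not given in the sources used here. Of 16 genes of the circadian clock, 0 passed at either duration, with medians of -0.32 and -0.17. The largest differences were those of Dbp (-1.16 ± 1.15) and Per2 (-1.07 ± 0.53) at 90 days, and of Per2 (-0.63 ± 0.53) and Per1 (-0.38 ± 0.34) at 28 days. Without the 2 arrays apart the clock medians were -0.27 and 0.02, and 0 genes passed.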

How the data were processed

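The deposited table held log2 intensities that the authors made with RMA, per the submitters' processing notes, which adjusts background, equalises the arrays and combines the probes of a probe set. The version of RMA was not given in the sources used here. RMA compresses differences near background and saturation, so changes of very dim or bright probe sets can come out small. The values were used as deposited, for 20 arrays with 0 columns left unused. Of 45037 probe sets 34945 had 1 symbol in the platform annotation, 932 several and 9160 none, and 34741 matched RefSeq by Entrez identifier. The probe set with the highest mean stood for a gene, and genes above the array's 25th percentile (3.96 to 4.26) on at least 5 arrays were kept, 16054 of 18193. All 10 genes of the group passed this filter. The precision is limited by the number of arrays.

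Groups were read from the sample labels. All genes were fitted in limma 3.58.1 (R 4.3.3) with a mean for each of the 4 groups and an intensity trend, and p-values were adjusted by Benjamini and Hochberg over all genes, two-sided, at 0.05. Spread was tested by limma on absolute deviations from the group mean. On simulated data with no difference, the unadjusted p-values of this spread test ran somewhat small. Correlations used deviations from group means, with two-sided p-values from 100000 shuffles of mice within groups (Python 3.11.15, numpy 2.4.6, scipy 1.17.1), and the smallest p these can give is 1e-05. Figures were drawn with matplotlib 3.10.9. All fits were tested on simulated data.

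The genes and lists were chosen with earlier results of these data known. The rule for names took the 10 genes, Cyp2b10, Ghr, Jak2, Stat5a, Stat5b and Cish, the called genes of each list or else its 2 largest differences at each duration, and the 5 genes most correlated with Moxd1 and with Igf1. Genes set beside Socs2 and Bcl6, Cux2 and Dbh were chosen after their values were seen. Mice of the same number in PB and CMC groups did not deviate together (correlations from -0.60 to 0.36), so the numbers were not taken as pairs. Alternatives covered the filter, the choice of probe sets, scaling, weights, the first principal component, a block for replicate number, and leaving out arrays. The lists without the 2 arrays apart were added after seeing the data.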

Additional observations from a re-analysis of the deposited data

Results flagged for a closer look

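A single mouse lay far from the other 4 of its group, past the 95% critical value of Dixon's test (0.71), in 8 of 80 groups of values checked over 20 probe sets, where chance gives about 1 in 20. Of the 8, 4 belonged to PB replicate 5 at 28 days, 1 of the 2 arrays that stood apart: Cyp2d9 at 12.22 (the others 13.79 to 14.04), Igfals at 7.91 (the others 9.41 to 9.90), and Igf1 on the 2 probe sets next in brightness after the one used at 9.57 (the others 12.30 to 12.71) and 9.69 (the others 12.19 to 12.58). Moxd1 was at 7.12 in CMC replicate 3 at 28 days (the others 4.24 to 5.02). Hsd3b5 was at 12.26 in CMC replicate 2 at 90 days (the others 12.92 to 13.09), and in the same mouse the dim probe set of Bcl6 was at 5.29 (the others 4.86 to 4.92). A dim probe set of Socs2 was at 4.90 in PB replicate 1 at 90 days (the others 3.45 to 3.76).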

How the results depend on the processing

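The count of the 10 genes called for a change or for spread stayed at 0 under every alternative run, including the removal of each array in turn (range 0 to 0) and the replicate number as a block (0 at each duration), and the block changed no call. Of 1380 values of single changes under alternatives, 161 had the opposite sign to the value reported, and of 580 values of spread 57 did, all of them short of the threshold on both sides. The correlations moved more. The number of pairs that passed was 2 as reported, 1 without the 2 arrays apart, 0 without the 4 mice numbered 1 (chosen after seeing the data), 5 after regression on the first principal component and 8 after cyclic loess. For Cyp2d9 and Igfals r was 0.525, 0.917 and 0.382 under the first 3 of these, with adjusted permutation p of 0.324, 0.0702 and 0.276, and 0.659 without the 2 mice farthest from the median of Cyp2d9. For Hsd3b5 and Moxd1 it was 0.356 without the 2 mice farthest from the median of Hsd3b5. For Elovl3 and Cyp7b1 it was 0.782 without the mice numbered 1 (adjusted permutation p = 0.0702). After regression on the component, r turned from -0.44 to 0.476 for Cyp2d9 and Slco1a1 and from -0.48 to 0.195 for Slco1a1 and Igfals. After cyclic loess these 2 pairs stayed negative and passed (r = -0.616 and -0.599, adjusted permutation p = 0.0135 and 0.0307), so the alternatives disagreed in sign. Bcl6 and Socs2 passed after the regression (r = -0.693, adjusted permutation p = 0.0315). Bcl6 and Socs2 also passed after cyclic loess (r = -0.651, adjusted permutation p = 0.0417). The causes were not tested. With 5 mice per group, the intervals of Moxd1, Bcl6, Elovl3, Socs2 and Cyp7b1 leave room for changes of more than 1 log2 unit in at least 1 direction. These are intervals of the brightest probe set of each gene. For Igf1 the middle 2 probe sets in brightness gave -0.64 ± 0.46 and -0.66 ± 0.43 at 90 days, against -0.17 ± 0.09 on the brightest. They bound the change of Igf1 less tightly.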
